A study of Mus musculus with 6 samples.

Results

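The genes described are the expressed Zfp genes of the postnatal mouse testis. A gene row of the normalized table was taken if its name is Zfp followed by digits only and if its detection p-value was under 0.01 on all 6 arrays. The detection p-value is meant to compare the signal of a row with that of the negative controls on the same array. It did not simply follow the intensity of a gene row. Zfp78 was detected on all 6 arrays at 21.8 to 32.5 intensity units, and Cbx3 on 1 at 1289.8 to 1561.4. Of 283 rows with such a name, 120 met this rule, out of 30774 gene rows in all. They were chosen by detection on the arrays of both genotypes, so that they are expressed is no result. RNA came from whole testes of 12-day-old C57BL/6 males, 3 ScAtrxKO and 3 wild-type, with each sample on 1 Illumina MouseWG-6 v2 BeadChip array. In ScAtrxKO mice a floxed Atrx gene was deleted by an AMH-Cre transgene, which is active in Sertoli cells, so the other cells of the testis keep the gene. The sources used here do not say whether the wild-type males carried the floxed allele or the transgene, or whether the 3 testes per genotype came from 3 animals. The p-values therefore reflect only how far these 6 samples spread, which may be technical.

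Zfp genes are named for the zinc finger, a small fold held by a zinc ion that usually grips DNA. In the mouse most of them encode Krueppel-type proteins with a row of such fingers, and many also carry a KRAB domain, which recruits the co-repressor Trim28 and the methyltransferase Setdb1 to silence transposons and some genes. ATRX is a chromatin remodeler that places the histone variant H3.3 together with Daxx, and in human cell lines it has been found over the last exons of zinc finger genes. The comparison therefore asks whether the RNA of the zinc finger genes differed when Sertoli cells had lost ATRX.

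The arrays of the genotypes differed in brightness before normalization. The median intensity over all rows was 13 to 18.1 on the ScAtrxKO arrays and 15 to 15.1 on the wild-type arrays, and ScAtrxKO replicates 2 and 3 were the brightest. Between 10493 and 10917 rows were detected on an ScAtrxKO array and between 10624 and 10803 on a wild-type array. Atrx itself was detected on 0 of the 6 arrays, with 3.03 ± 0.551 (SD, n = 3) intensity units in ScAtrxKO and 3.53 ± 1.81 (SD, n = 3) in wild-type testes, and gave no check of the labels. Markers of other cell types differed with the genotype: 15 of 17 tested macrophage markers were higher in ScAtrxKO testes and 0 lower, while 7 of 14 spermatogonial markers were lower and 0 higher. The summed intensity of the macrophage markers was 9703.5 to 15594.7 on the ScAtrxKO arrays and 4058.3 to 5445.1 on the wild-type arrays, and that of the spermatogonial markers was 9798 to 12969.8 on the ScAtrxKO arrays and 12918.7 to 13540.3 on the wild-type arrays, with Ddx4 detected on no array. The part of these shifts in the results below was not tested. In whole testes, fewer cells of a type and less RNA per cell cannot be told apart.

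On the deposited scale most expressed Zfp genes differed little between ScAtrxKO and wild-type testes. Of the 120 genes, 58 had a positive and 62 a negative difference, and the median was -0.01 on the normalized log2 scale (variance-stabilized and quantile-normalized intensities), against -0.02 for all 8987 rows detected on all 6 arrays. The differences ran from -0.38 to 0.21, and 82 genes (68.3%) lay within 0.1 of zero on either side, as did 53.7% of all rows detected on all 6 arrays. On other scales the range was wider: it was -0.83 to 0.40 on log2 intensities with quantile normalization, -0.80 to 0.40 with median scaling and -0.61 to 0.32 with neqc, a second background correction and normalization of the intensities. The median standard error of a difference was 0.0527 for the Zfp genes. Their median SD within a genotype was 0.0510 in ScAtrxKO and 0.0580 in wild-type testes. The mean intensity of a Zfp gene over the 6 arrays was 28.2 to 1907 with a median of 229.5, against a median of 445.5 for all rows detected on all 6 arrays. Of the 60 Zfp genes with the lower mean level 50 lay within 0.1 of zero, and of the 60 with the higher mean level 32 did.

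**Figure D1:**
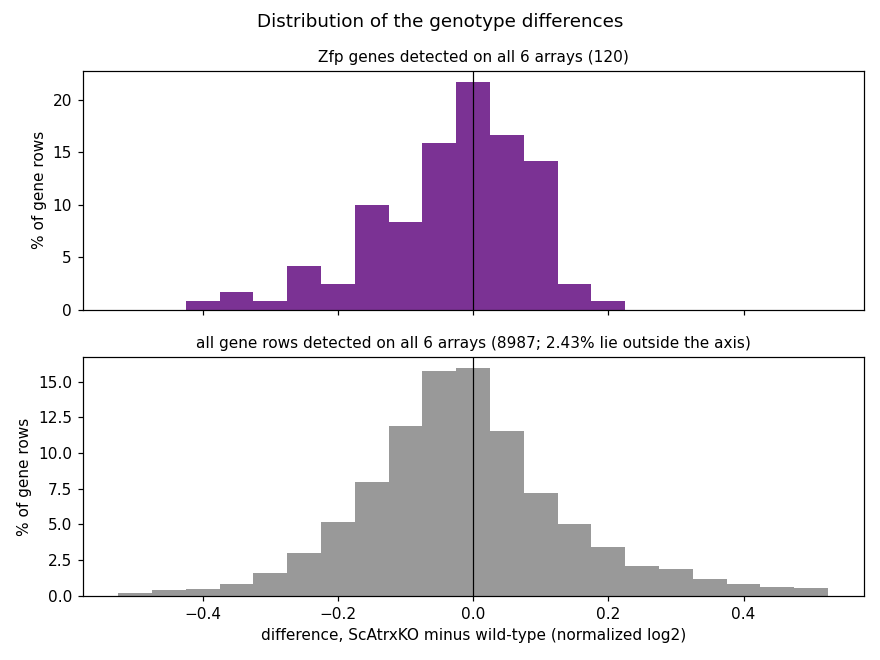
Distribution of the difference between ScAtrxKO and wild-type testes (normalized log2, horizontal axis) as a percentage of gene rows (vertical axis), for the 120 Zfp genes above and for all 8987 rows detected on all 6 arrays below. The Zfp genes end at 0.21 on the higher side and at -0.38 on the lower side.

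In the limma fit across all 13026 rows detected on at least 1 array, 12 of the 120 Zfp genes were lower and 1 was higher in ScAtrxKO testes at a Benjamini-Hochberg adjusted p under 0.05, and 107 did not pass. Among all rows tested 5.50% were lower and 7.47% higher, and among the rows detected on all 6 arrays 7.02% were lower and 8.73% higher. The shares for the Zfp genes were 10% lower and 0.833% higher, and their difference from the other rows was not tested. A change of at least 1.5-fold together with an adjusted p under 0.05 from limma was reached by 1.30% of all tested rows and by 0 Zfp genes, of which 20 (16.7%) were lower and 4 (3.33%) higher at an unadjusted p under 0.05. At that p 14.9% of all tested rows were lower and 13.9% higher, and of the rows detected on all 6 arrays 18.1% were lower and 15.6% higher. With neqc 1 Zfp gene passed both limits. All 3 ScAtrxKO values were below all 3 wild-type values for 22 of the 120 genes (18.3%) and above them for 10 (8.33%), and for 19.1% and 16.5% of the rows detected on all 6 arrays.

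The count of lower Zfp genes changed with the arrays and the normalization used. It was 5, 4 and 7 when ScAtrxKO replicate 1, 2 or 3 was left out, 4 when wild-type replicate 2 was, and 8 and 9 when wild-type replicate 1 or 3 was. Lower calls over all tested rows fell too, to 273 to 644 in these 6 fits (2.10% to 4.94%), against 717 with all arrays. In the last of these fits 1 gene was higher, and in the other 5 there were 0. Zfp282, the higher gene with all arrays, passed in none of the 6. On log2 intensities with quantile normalization or with median scaling 3 genes were lower and 0 higher, all 3 of them past 1.5-fold: Zfp541, Zfp653 and Zfp821. Among all rows tested 1.74% were lower with quantile normalization on that scale and 1.75% with median scaling.

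**Figure D2:**
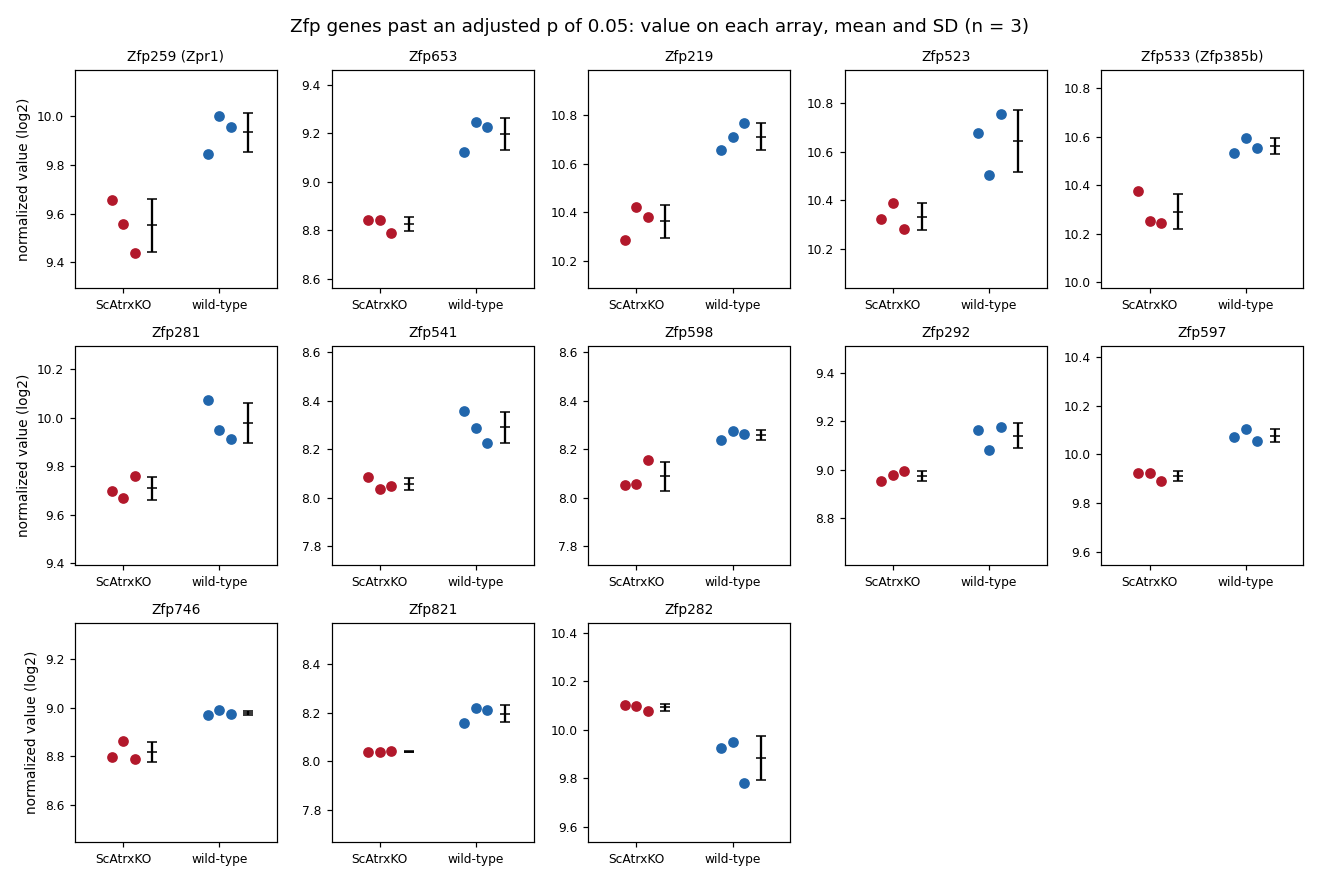
Normalized log2 value (vertical axis, spanning the same range in each panel) on each of the 3 ScAtrxKO arrays (red) and the 3 wild-type arrays (blue) for the 13 Zfp genes past an adjusted p of 0.05, with the mean and SD beside the points. The ScAtrxKO points lie below the wild-type points in 12 panels and above them in the panel of Zfp282.

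Zfp653, a zinc finger protein described as a repressor of the steroidogenic factor Nr5a1, was the only one of these 13 genes to pass under every alternative run. Its normalized log2 values were 8.84, 8.84 and 8.79 in ScAtrxKO testes and 9.12, 9.24 and 9.23 in wild-type testes. The groups did not overlap, and the gap between them was wider than the spread within either. It fell by 0.37 (standard error 0.0475, adjusted p = 0.00277 from limma), a fold of 0.773. Before normalization it had 372 ± 55.1 (SD, n = 3) intensity units in ScAtrxKO and 488 ± 39.8 (SD, n = 3) in wild-type testes. Over the 16 alternatives its difference was -0.60 to -0.35. The gene lies at chr9:22055411-22071395 (GRCm38.p6). Its promoter is shown because it holds the palindrome recognised by the transcription factor NRF1, in capitals in the RefSeq sequence of chr9:22071327-22071626, minus strand:
Zfp653: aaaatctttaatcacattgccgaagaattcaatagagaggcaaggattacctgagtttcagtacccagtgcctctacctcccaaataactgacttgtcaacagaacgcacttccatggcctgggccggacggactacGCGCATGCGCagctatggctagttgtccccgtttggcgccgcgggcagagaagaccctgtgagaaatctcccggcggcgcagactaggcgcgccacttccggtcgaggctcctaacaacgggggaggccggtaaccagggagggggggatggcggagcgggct

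Zfp259, whose current RefSeq symbol is Zpr1, had the largest difference of the 120 on the deposited scale and with neqc. Among the genes named here, Zfp541, Zfp598, Zfp653 and Zfp821 differed by more on both log2 intensity scales. Zfp42 did so with quantile normalization only (-0.4848, against -0.4812 for Zfp259). Zpr1 binds a translation elongation factor and the SMN protein of spinal muscular atrophy and is not a Krueppel-type factor. The normalized log2 values of Zfp259 were 9.66, 9.56 and 9.44 in ScAtrxKO testes and 9.84, 10.003 and 9.95 in wild-type testes. ScAtrxKO replicate 3 was the lowest, and the closest values of the genotypes were those of replicate 1. The fall was 0.38 (standard error 0.0666, adjusted p = 0.00974 from limma), and intensities were 787 ± 80.1 in ScAtrxKO and 961 ± 74.5 in wild-type testes (SD, n = 3 each). The call held with each array left out, but not on log2 intensities, where the difference was -0.48 with quantile normalization (adjusted p = 0.0608) and -0.49 with median scaling (0.0623). Its promoter, chr9:46272814-46273113 on the plus strand (GRCm38.p6, RefSeq), is shown for the ETS factor motif CCGGAAG that starts 8 bases before the start site, in capitals:
Zpr1: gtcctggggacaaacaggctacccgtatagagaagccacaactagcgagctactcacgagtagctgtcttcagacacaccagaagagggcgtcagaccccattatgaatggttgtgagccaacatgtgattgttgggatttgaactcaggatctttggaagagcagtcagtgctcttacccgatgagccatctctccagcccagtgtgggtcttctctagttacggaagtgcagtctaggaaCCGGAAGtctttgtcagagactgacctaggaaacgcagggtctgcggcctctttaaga

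Zfp219, a Krueppel-type protein known as a partner of Sox9 in cartilage cells, had normalized log2 values of 10.29, 10.42 and 10.38 in ScAtrxKO testes and 10.66, 10.71 and 10.77 in wild-type testes. The fall was 0.35 (standard error 0.0517, adjusted p = 0.00521 from limma). Its call too held with each array left out and missed on log2 intensities, with adjusted p-values of 0.0562 and 0.0553. Intensities were 1565 ± 309 in ScAtrxKO and 1775 ± 102 in wild-type testes (SD, n = 3 each), and the genotypes overlapped in intensity.

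Zfp523 is the mouse counterpart of human ZNF76 and a close relative of Zfp143. It had 10.33, 10.39 and 10.28 in ScAtrxKO testes and 10.68, 10.50 and 10.75 in wild-type testes on the normalized log2 scale. The fall was 0.31 (limma, standard error 0.068, adjusted p = 0.0231). Wild-type replicate 2 was the nearest to the ScAtrxKO values. The adjusted p was 0.0638 and 0.0631 when ScAtrxKO replicate 1 or 3 was left out, 0.0682 and 0.0524 when wild-type replicate 1 or 3 was, and 0.0536 with neqc. Zfp143, which activates promoters, had 8.61, 8.51 and 8.57 in ScAtrxKO testes and 8.61, 8.43 and 8.61 in wild-type testes. Its values overlapped, with a difference of 0.02 (95% interval -0.12 to 0.16, adjusted p = 0.884).

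Zfp281, a regulator of stem cells that binds GC-rich promoters, had 9.70, 9.67 and 9.76 in ScAtrxKO testes and 10.07, 9.95 and 9.91 in wild-type testes. It fell by 0.27 (limma, standard error 0.0539, adjusted p = 0.0168). The adjusted p was 0.0502 and 0.0644 when ScAtrxKO replicate 1 or 2 was left out, and 0.0502 when wild-type replicate 2 was. Zfp148, which binds the same kind of promoter, had 9.26, 9.34 and 9.32 in ScAtrxKO testes and 9.29, 9.38 and 9.38 in wild-type testes, a difference of -0.05 (95% interval -0.15 to 0.06, adjusted p = 0.561). The Zfp281 promoter is shown for its 4 GC boxes (GGGCGG on either strand), in capitals in the RefSeq sequence of chr1:136624651-136624950, plus strand (GRCm38.p6):
Zfp281: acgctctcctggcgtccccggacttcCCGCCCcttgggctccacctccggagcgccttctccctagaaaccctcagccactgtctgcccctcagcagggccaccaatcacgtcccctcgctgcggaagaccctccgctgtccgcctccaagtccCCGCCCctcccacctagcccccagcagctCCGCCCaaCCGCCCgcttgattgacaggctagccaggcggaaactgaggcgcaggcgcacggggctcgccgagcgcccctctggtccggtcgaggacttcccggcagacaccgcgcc

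Zfp541 is a germ cell protein needed in the prophase of meiosis. Its normalized log2 values were 8.08, 8.03 and 8.05 in ScAtrxKO testes and 8.36, 8.29 and 8.23 in wild-type testes, a fall of 0.23 (standard error 0.0466, adjusted p = 0.0166 from limma). Intensities before normalization were 91.5 ± 10.9 in ScAtrxKO and 139.5 ± 15.9 in wild-type testes (SD, n = 3 each). The size of the difference varied with the scale: it was -0.83 on log2 intensities with quantile normalization, -0.80 with median scaling and -0.14 with neqc. With replicate 2 of ScAtrxKO left out the adjusted p was 0.0634, and with replicate 2 of wild-type 0.0589. Of 17 tested markers of meiotic germ cells 4 (23.5%) were lower and 1 (5.88%) higher, with a median of -0.23. Among all rows tested 5.50% were lower and 7.47% higher. Of the 17 markers, 16 had a negative and 1 a positive difference. The summed marker intensity before normalization was 13615.5 to 17467.3 on the ScAtrxKO arrays and 14181.5 to 17078.6 on the wild-type arrays. On that scale ScAtrxKO replicates 2 and 3 were the brightest arrays. Of the listed markers 6 were detected on no array, Sycp3, Dmc1 and Spo11 among them. The part of germ cell number in the result for Zfp541 was not tested.

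Zfp533, now Zfp385b, had 10.37, 10.25 and 10.24 in ScAtrxKO testes and 10.53, 10.60 and 10.55 in wild-type testes on the normalized log2 scale. It fell by 0.27 (standard error 0.0493, adjusted p = 0.0119 from limma). Leaving out replicate 2 gave an adjusted p of 0.0503 for ScAtrxKO and 0.0520 for wild-type. Zfp598, an E3 ubiquitin ligase that senses collided ribosomes, had 8.05, 8.06 and 8.15 in ScAtrxKO testes and 8.24, 8.27 and 8.26 in wild-type testes, a fall of 0.17 (adjusted p = 0.0435). Zfp292, a regulator of the growth hormone gene, had 8.95, 8.98 and 8.99 in ScAtrxKO testes and 9.16, 9.08 and 9.18 in wild-type testes, a fall of 0.17 (adjusted p = 0.0436). Zfp597, whose human counterpart is an imprinted gene, had 9.92, 9.92 and 9.89 in ScAtrxKO testes and 10.07, 10.11 and 10.05 in wild-type testes, a fall of 0.17 (adjusted p = 0.0308). In none of these 4 genes did the genotypes overlap.

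The 2 remaining lower genes are named here after their values were seen. Zfp746, known as PARIS and as a substrate of parkin, had 8.80, 8.86 and 8.79 in ScAtrxKO testes and 8.97, 8.99 and 8.98 in wild-type testes (a fall of 0.16, adjusted p = 0.0381 from limma). Zfp821 had 8.04 on all 3 ScAtrxKO arrays and 8.16, 8.22 and 8.21 in wild-type testes (a fall of 0.16, adjusted p = 0.0387). With single arrays left out, the calls of Zfp746, Zfp821 and Zfp292 were lost for each of the 6 arrays, with adjusted p-values of 0.0599 to 0.115, 0.0545 to 0.123 and 0.0544 to 0.113. That of Zfp598 was lost for every array but ScAtrxKO replicate 3, at 0.0799 to 0.134, and that of Zfp597 for every array but wild-type replicate 3, at 0.0682 to 0.106. The mean intensity before normalization was lower in ScAtrxKO testes for 11 of the 12 lower genes. For 4 of them all ScAtrxKO intensities lay below all wild-type ones. ScAtrxKO arrays 2 and 3 were the brightest. The 12 genes were picked as lower on the normalized form of the same intensities, so these counts are no separate support. The same shares over all rows are not given here.

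Zfp282, a KRAB zinc finger protein, was the only one of the 120 called higher with all 6 arrays. It had 10.10, 10.10 and 10.08 in ScAtrxKO testes and 9.92, 9.95 and 9.78 in wild-type testes on the normalized log2 scale. The rise was 0.21 (limma, standard error 0.0528, adjusted p = 0.0395). Wild-type replicate 3 was the lowest. The intensities were 1256 ± 186 in ScAtrxKO and 921 ± 71.5 in wild-type testes (SD, n = 3 each) and did not overlap. Its call was lost with any of the 6 arrays left out, with adjusted p-values of 0.0591 to 0.109, and with neqc, at 0.0602. The promoter, chr6:47877305-47877604 on the plus strand (GRCm38.p6, RefSeq), holds 1 GC box, in capitals:
Zfp282: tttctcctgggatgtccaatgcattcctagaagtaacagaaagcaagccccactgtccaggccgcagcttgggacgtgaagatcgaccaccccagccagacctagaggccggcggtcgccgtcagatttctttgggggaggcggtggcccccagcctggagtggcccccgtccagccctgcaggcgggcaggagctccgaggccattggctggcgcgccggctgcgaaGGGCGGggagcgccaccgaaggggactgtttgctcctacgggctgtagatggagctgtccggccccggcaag

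**Figure D3:**
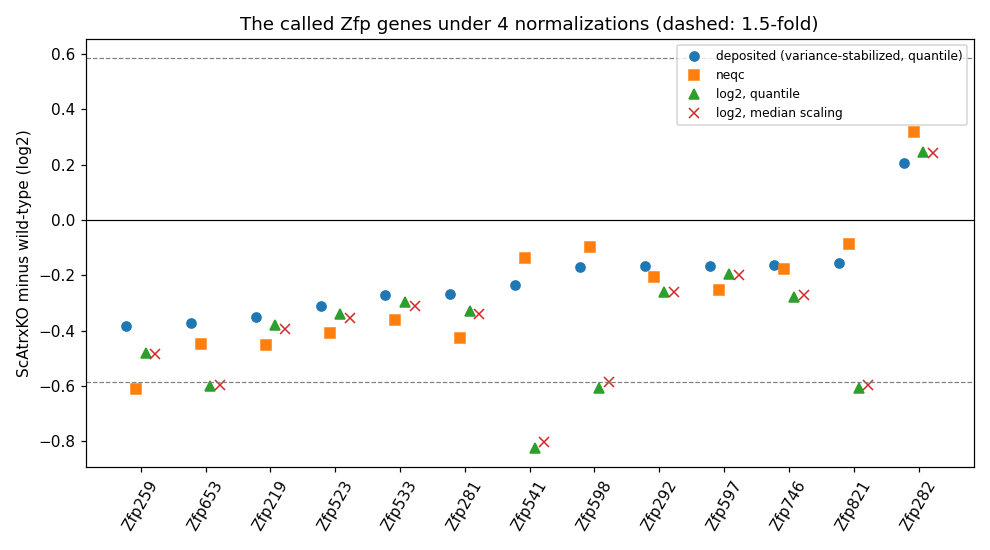
Difference between ScAtrxKO and wild-type testes (log2, vertical axis) of the 13 called Zfp genes under 4 normalizations, with dashed lines at a 1.5-fold change. All 13 keep their direction, Zfp541, Zfp598, Zfp653 and Zfp821 lie beyond 1.5-fold on both log2 scales, where Zfp598 does not pass the adjusted p, and Zfp259 lies beyond it with neqc.

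Of the Zfp genes with well-known roles, 14 were tested, 3 of them were lower (Zfp281, Zfp292 and Zfp541) and 0 higher. The lower share was 21.4%, against 5.50% of all rows tested and 7.02% of the rows detected on all 6 arrays. The higher shares of those rows were 7.47% and 8.73%. With so few genes listed, the difference in shares was not tested. A row was tested if detected on at least 1 array, so the 14 need not all meet the detection rule used above. Zfp42, known as Rex1 and as a marker of pluripotent cells, had 8.08, 8.08 and 7.96 in ScAtrxKO testes and 8.11, 8.22 and 8.15 in wild-type testes. Its values did not overlap, yet its difference of -0.12 did not pass (adjusted p = 0.175 from limma). Zfp809, which silences retroviral DNA, had 8.36, 8.47 and 8.51 in ScAtrxKO testes and 8.33, 8.26 and 8.53 in wild-type testes, a difference of 0.07 (95% interval -0.10 to 0.25, adjusted p = 0.580). Zfp36 encodes tristetraprolin, an RNA-binding protein with another type of zinc finger that speeds the decay of AU-rich mRNAs. It had 8.80, 8.74 and 8.91 in ScAtrxKO testes and 8.84, 8.83 and 8.95 in wild-type testes, a difference of -0.06 (95% interval -0.19 to 0.08, adjusted p = 0.566). Zfp326, which couples splicing to transcription, differed by -0.09 (95% interval -0.25 to 0.08) and Zfp335, a chromatin regulator, by -0.03 (95% interval -0.12 to 0.06). In these 4 genes the genotypes overlapped.

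All 120 rows matched the RefSeq gene table of GRCm38.p6, 102 by symbol and 18 by synonym only. For 13 of the latter the current symbol no longer begins with Zfp. Of these 13, only Zfp259 (Zpr1) passed, their median difference was -0.03, and 9 of them lay within 0.1 of zero. Zfp496, now Zkscan17, which binds the methyltransferase Nsd1, had 10.24, 10.22 and 10.41 in ScAtrxKO testes and 10.07, 10.17 and 10.14 in wild-type testes, without overlap (difference 0.17, adjusted p = 0.112 from limma). A second row of the same gene, named Zkscan17 in the table, had 8.52, 8.34 and 8.45 in ScAtrxKO testes and 8.39, 8.40 and 8.23 in wild-type testes, which overlapped (difference 0.10, adjusted p = 0.373). It is counted among the Zkscan rows below. Zfp50, now Zbtb25, had 8.78, 8.73 and 8.69 in ScAtrxKO testes and 8.81, 8.89 and 8.99 in wild-type testes (difference -0.16, adjusted p = 0.0950). The E3 ubiquitin ligase Rnf114 (Zfp313) differed by -0.13 (adjusted p = 0.345), the repressor Zbtb14 (Zfp161) by -0.09 (0.213) and Champ1 (Zfp828), a protein of chromosome attachment to the spindle, by -0.08 (0.316). No call was made for any of these 5.

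The Zfp genes lay on 19 chromosomes, with 29 of the 120 on chromosome 7. There 20 of 29 had a positive difference and the median was 0.02, while on the other chromosomes 38 of 91 were positive, with a median of -0.03. Of the 568 other rows on chromosome 7 that were detected on all 6 arrays, 256 (45.1%) were positive. Whether the Zfp genes there differ from these was not tested. Only 1 of the 29, Zfp541, passed the test. Zfp genes whose starts follow one another within 500000 bases formed 18 runs, which held 50 of the genes. The run of 5 genes at chr6:47835633-48445992 held both a higher and a lower gene: Zfp282 rose by 0.21 and Zfp746 fell by 0.16, with Zfp398 at 0.03, Zfp212 at 0.01 and Zfp467 at 0.16, none of which passed. At chr9:22055411-22307814 Zfp653 fell by 0.37, next to Zfp809 at 0.07 and Zfp810 at 0.03, which did not pass. The 5 Zfp genes at chr7:127233061-127615785 ran from -0.03 to 0.06 with no call. At chr16:3744099-3884377 both genes had negative differences, with Zfp597 at -0.17 and called, and Zfp263 at -0.16 and not called (adjusted p = 0.325).

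**Figure D4:**
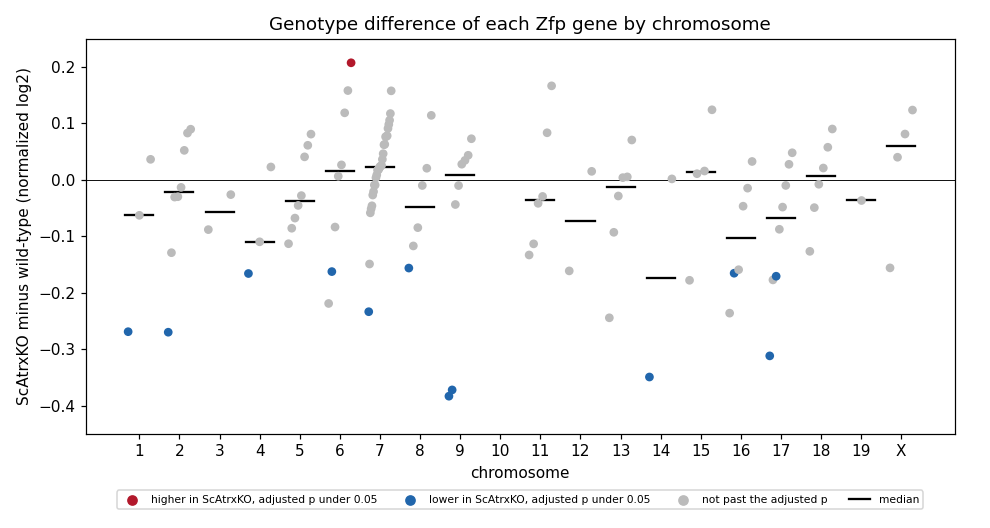
Difference between ScAtrxKO and wild-type testes (normalized log2, vertical axis) of each of the 120 Zfp genes by chromosome (horizontal axis), with a black line at the median and colour for the call. The lower genes lie on several chromosomes, and chromosome 7 with 29 genes has a median of 0.02.

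The RefSeq promoters, from 250 bases before to 50 after the start site, covered 99 of the 120 genes with 135 promoters. The median promoter of a Zfp gene had 19 CG dinucleotides, that of the 12 lower genes 29, and that of all 32851 promoters 7. The GC box GGGCGG stood on either strand in 57% of the Zfp promoters, 42.1% of the 19 promoters of the lower genes and 35.7% of all promoters. The ETS motif CCGGAAG was in 17.8% of the Zfp promoters, 15.8% of those of the lower genes and 8.86% of all promoters. For the NRF1 palindrome these shares were 3.70%, 5.26% and 0.971%, in the same order. The shares were not tested against each other. All promoters include those of genes not detected here, whereas the Zfp genes were chosen by detection. Promoters of other detected rows were not compared, so these values are not shown to be particular to Zfp genes. The motif that Zfp143 binds was in 3 of the 135 promoters (2.22%) and in 0 of the 19 of the lower genes, against 0.286% of all promoters. The 3 genes that carry it are shown with the motif in capitals, on either strand, since Zfp143 is itself one of the 120:
Zfp1: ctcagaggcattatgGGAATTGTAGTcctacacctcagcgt
Zfp58 (row Zfp817): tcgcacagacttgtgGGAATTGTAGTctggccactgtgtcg
Zfp692: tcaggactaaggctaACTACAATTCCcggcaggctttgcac
These 41-base stretches come from the promoters at chr8:111643193-111643492 (plus strand), chr13:67500473-67500772 (minus strand) and chr11:58306819-58307118 (plus strand) of GRCm38.p6. The differences of the 3 genes were -0.01 for Zfp1, 0.00 for Zfp817 and -0.04 for Zfp692, and none passed. A match to a motif is a description of the letters and not a bound site.

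The genes through which KRAB proteins and ATRX act were set against all 13026 tested rows, of which 13% were called in either direction. Of 15 tested genes of the KRAB co-repressor machinery, limma called 0 lower and 0 higher, with 1 lower (6.67%) and 0 higher at an unadjusted p under 0.05 and a median of -0.05. Trim28, the co-repressor itself, differed by -0.08 (adjusted p = 0.528 from limma). Rbbp7 differed by 0.21 (0.220), Uhrf1 by -0.16 (0.207), Chd3 by -0.09 (0.306) and Morc2a, a silencing ATPase, by -0.18 (0.0682). Uhrf1 was detected on only 2 arrays and Chd3 on 4. Of 10 tested ATRX and H3.3 partners, 1 was lower and 0 higher. The share called in either direction was thus 10%, against 13% of all tested rows. The lower share was 10% against 5.50%, a difference that was not tested. The lower gene was Daxx, the partner of ATRX in placing H3.3. It had 10.02, 9.996 and 9.96 in ScAtrxKO testes and 10.15, 10.15 and 10.18 in wild-type testes on the normalized log2 scale. The fall was 0.17 (limma, standard error 0.0393, adjusted p = 0.0293). Its intensity before normalization was 1157 ± 159 in ScAtrxKO and 1157 ± 28 in wild-type testes (SD, n = 3 each). Hira, a second H3.3 chaperone, was detected on only 1 array and differed by -0.08 (adjusted p = 0.245). Asf1b differed by -0.15 (0.360) and the H3.3 gene H3f3a by -0.06 (0.372).

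Other zinc finger families are small here. The share called was 10% for the Zbtb genes, 10% for the Klf genes and 14.3% for Zfp genes with a letter in the name, near the 13% of all tested rows. Of 20 tested Zbtb rows 1 was lower and 1 higher, and of 10 Klf genes 1 was lower. Of 7 Zfp genes with a letter in the name 1 was higher. Of 4 Zscan and 6 Zkscan rows 0 passed by limma (1 and 0 at an unadjusted p under 0.05). The called ones are named after their values were seen: Zbtb32 fell by 0.40 (adjusted p = 0.00624 from limma), Klf9 fell by 0.31 (0.0166), Zbtb7c rose by 0.39 (0.00428) and Zfp36l1, a relative of Zfp36, rose by 0.35 (0.00766). Whether these families differ from the Zfp genes was not tested.

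The detection rule left out 163 of the 283 Zfp rows, of which 99 were detected on no array and 64 on 1 to 5 arrays. The members closest to the limit were Zfp655, with a highest detection p of 0.00996, Zfp292 with 0.00873 and Zfp398 with 0.00866. The nearest rows outside were Zfp457 with 0.0118, Zfp341 with 0.0128 and Zfp276 with 0.0129. Their differences were -0.07, -0.17 and 0.03 for the 3 inside, and 0.01, -0.02 and -0.03 for the 3 outside.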

How the data were processed

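Whole testes of 3 ScAtrxKO and 3 wild-type males were each measured on 1 Illumina MouseWG-6 v2 BeadChip array. Per the authors, GenomeStudio (version not given in the sources used here) gave background-subtracted signals summarised by gene, and these were deposited as an intensity with a detection p-value for each row on each array. The authors also deposited log2 values, made with lumi by a variance-stabilizing transform followed by quantile normalization. Deposited tables of fold changes and enrichments were not used. The columns of unmapped samples numbered 0.

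The log2 values were fitted on genotype alone with limma 3.58.1 (lmFit, eBayes) in R 4.3.3. The 13026 rows with a detection p under 0.01 on at least 1 array were tested, p-values were adjusted over all of them by the Benjamini-Hochberg method, and a row was called at an adjusted p under 0.05. The fit was tested on simulated data. With 3 arrays a genotype, an exact two-sided permutation test of a single gene cannot go below 0.1. The number of arrays limits the precision.

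The genes and lists were chosen with earlier results of these data known. Named are the 10 largest called changes each way without overlap, genes with known roles, the 3 rows on either side of the detection limit, up to 6 genes with a changed symbol, and up to 4 genes of smallest p from each partner list. Trim28 is named outside this rule, as the co-repressor itself. The other marker lists gave these counts: 2 of 17 Sertoli cell markers higher and 1 lower, 5 of 10 Leydig, 1 of 6 peritubular myoid, 5 of 8 endothelial and 1 of 5 erythroid markers higher and 0 lower. Alternatives were neqc (offset 16), log2 intensities (floor of 1) with quantile normalization or median scaling, the series' value table, other detection filters, variance models, weighted arrays, a block for the replicate number and leaving out each array. Promoters came from RefSeq (GRCm38.p6). Protein sequences were not used here, so fingers and KRAB boxes were not counted.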

Additional observations from a re-analysis of the deposited data

How the results depend on the processing

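The deposited normalization gave 12 lower and 1 higher Zfp gene, 0 past 1.5-fold and a median of -0.0091. With neqc 9 were lower, 0 higher and 1 (Zfp259) past 1.5-fold. With log2 quantile normalization 3 were lower, 0 higher and 3 past 1.5-fold, with a median of -0.0289, and with median scaling 3, 0 and 3. With an intensity trend 10 were lower and 0 higher, with and without robust estimation. Array weights gave 16 lower, no detection filter 13, and testing only rows detected on all 6 arrays 8, each with 1 higher. Calls over all rows tested moved too. Lower ones were 5.50% with the deposited normalization, 3.26% with neqc, 5.93% with an intensity trend and 6.03% with robust estimation. They were 7% with array weights, 2.13% with no detection filter and 6.75% among rows detected on all 6 arrays. Higher ones were 7.47%, 5.27%, 8.4%, 8.56%, 8.75%, 3.14% and 8.41% in the same order. Taking the Zfp rows detected on at least 1 array gave 3 higher and 12 lower. Leaving out 1 array at a time gave 4 to 9 lower and 0 to 1 higher genes and a median of -0.0179 to 0.0087. The cause of these changes was not tested, but leaving out an array also leaves fewer samples. With the replicate number as a block 8 were lower and 1 higher, and of all rows tested 5.07% were lower and 6.88% higher. The labels give the arrays only a number in common. Deviations of same-numbered arrays correlated at -0.0168, 0.0234 and 0.1002. The last was the highest of all pairs, while ScAtrxKO replicate 1 correlated best with wild-type replicate 2. With 3 arrays per genotype these correlations cannot decide whether same-numbered arrays were paired. Over the 13 called genes and 16 alternatives, 122 of 208 values kept the call, 86 lost it and 0 changed direction, and Zfp653 alone kept it throughout. None of the 17 uncalled Zfp genes named by the rule gained a call, and the genes of the partner lists were not run under the alternatives. The restriction to genes with a zinc finger in the RefSeq protein was not run, since protein sequences were not used here.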

Other observations

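Some Zfp rows that the detection rule left out carried signal, and are named here after their values were seen. Zfp365 was detected on 3 ScAtrxKO and 0 wild-type arrays, with intensities of 68.3, 100.2 and 136.9 in ScAtrxKO testes and 4.9, 9.8 and 14.4 in wild-type testes. It entered the test only through its detection on the ScAtrxKO arrays, so the bound and p-value that follow are no independent support. On the variance-stabilized scale ScAtrxKO testes were at least 1.25-fold higher. For this bound, a wild-type value under the lowest detected one of its array was raised to it. The p-value (adjusted p = 0.00414 from limma) is for the deposited values without that raising, and the bound itself was not tested. Zfp30, detected on 4 arrays, had 8.32, 8.36 and 8.46 in ScAtrxKO testes and 8.21, 8.17 and 8.23 in wild-type testes on the normalized log2 scale (a rise of 0.18, adjusted p = 0.0481). These were the 2 higher and, with 0 lower, the only called rows among the 64 tested Zfp rows outside the rule. The shares were 3.12% higher and 0% lower, against 7.47% higher and 5.50% lower among all rows tested.

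Of the 163 Zfp rows outside the rule, 11 had a mean intensity above 200, and 2 of these were not tested at all. Zfp318, a regulator of IgD splicing that is abundant in testis, had 542.9, 698.9 and 656.6 intensity units in ScAtrxKO testes and 717.4, 761.4 and 650.8 in wild-type testes, with a lowest detection p of 0.0574. Zfp91, an E3 ubiquitin ligase, had 433.6, 574.3 and 520.6 in ScAtrxKO testes and 433.8, 451.1 and 452.6 in wild-type testes, with a lowest detection p of 0.0279. Zfp207, a spindle protein detected on 2 arrays, differed by -0.20 (adjusted p = 0.0637).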
